A study of Homo sapiens with 8 samples.

Results

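The phagocyte NADPH oxidase subunits are the genes CYBA, CYBB, NCF1, NCF4, RAC2 and HVCN1, and their transcripts were followed in MV4-11 cells treated with an LSD1 inhibitor, a CDK4/6 inhibitor or both. They were taken by symbol from the expression table, where they are 6 of 26364 rows. MV4-11, a human AML cell line, carries the fusion MLL-AF4 and FLT3-ITD, an internal tandem duplication of that receptor. The 4 groups of 2 libraries were control cells in the vehicle DMSO, cells in TCP at 5 μM, cells in palbociclib at 0.5 μM and cells in the combination of both molecules at these doses, for 4 days by the labels. TCP is tranylcypromine, an inhibitor of the histone demethylase LSD1, and palbociclib inhibits CDK4 and CDK6. The study's methods give palbociclib first and add the LSD1 inhibitor on the following day, so the length of the exposure to TCP in these libraries was not settled here. All groups are the same line, which stands for 1 leukemia, and the labels do not say whether the replicates are separate cultures, so that p-values measure only the spread between these libraries.

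The phagocyte oxidase passes electrons from NADPH across the membrane to oxygen and so makes superoxide, the first product of the respiratory burst of neutrophils and macrophages. CYBB (gp91phox, the catalytic subunit) and CYBA (p22phox, its partner) form the membrane cytochrome. NCF1 (p47phox) and NCF4 (p40phox) wait in the cytosol and join the cytochrome upon stimulation, together with the GTPase RAC2. HVCN1 is a proton channel that compensates the charge the oxidase moves. Loss of CYBB, CYBA, NCF1 or NCF4 causes chronic granulomatous disease, and expression of several of these genes increases as myeloid cells mature.

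The values are TPM (transcripts for every 1000000), read counts divided by gene length and scaled by the authors to that sum in each library. The sequencing depth cannot be recovered from them and is unknown. In bulk RNA, fewer cells of a type and less RNA per cell cannot be told apart. A library held 13320 to 13640 genes at 1 TPM or more, and the 10 most abundant genes held 9.12% to 9.67% of a library's TPM without palbociclib and 13.96% to 15.8% with it. All 10 myeloid identity genes on the marker list were at 1 TPM or more in every library. Of 10 lymphoid and erythroid markers, 6 or 7 were listed at 0 in every library and the summed level of the list was 3.05 to 8.24 TPM. The study grew its cell lines on HS-5 stromal cells, and the summed level of 12 stromal markers was 12.998 to 38.1 TPM in 7 libraries and 112 TPM in palbociclib replicate 2, where COL1A1 had 22.2 TPM, FN1 23.4 TPM and COL3A1 17.5 TPM. POSTN was listed at 0 in all libraries. TAGLN alone had 8.30 to 17.7 TPM and dominated the sum in several libraries. It was 10.9 of 12.998 TPM in control replicate 1 and 15.2 of 17.5 TPM in TCP replicate 1. The sum therefore does not show an even background. COL1A1 had 0.185 and 1.23 TPM in control, 0.151 and 1.79 TPM in TCP and 1.32 TPM in palbociclib replicate 1. Combination libraries had 2.29 and 3.78 TPM of COL1A1. The stromal sum was higher in replicate 2 than in replicate 1 of each group, and its part in the results was not tested.

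Palbociclib, alone or with TCP, was accompanied by more transcript of the catalytic subunit CYBB and of the cytosolic subunits NCF1 and NCF4. RAC2 was higher by less than these, HVCN1 was lower by a small amount and CYBA differed little. None of the latter passed the thresholds given next. A gene was called when it moved by 1 or more on the log2 scale, up or down, with an adjusted p below 0.01, the thresholds of the study, in limma on log2(TPM + 1) with Benjamini-Hochberg adjustment over the 14151 genes that reached 1 TPM in 2 or more libraries. All 6 members entered the test. Under palbociclib, 3 of the 6 rose and 0 fell, where 4.54% of all genes tested rose and 4.56% fell. Under the combination, 3 rose and 0 fell, beside 5.87% and 7.82% of all genes. Against TCP alone, the combination gave 3 higher and 0 lower, beside 5.46% and 6.7%. After median-ratio scaling 5.77% of all genes rose and 2.93% fell under palbociclib, 7.80% and 4.81% under the combination, and 6.85% and 4.40% for the combination against TCP. The 3 members were CYBB, NCF1 and NCF4 each time, and the comparisons share libraries, so they are not independent of each other.

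Under TCP alone, limma called 0 members, with 1 of them, NCF1, at an unadjusted p below 0.05, beside 0.0565% of all genes higher and 0% lower, and 1241 genes had an unadjusted p below 0.05. The combination against palbociclib alone gave 0 called members in limma, again with NCF1 alone at an unadjusted p below 0.05, beside 0.459% of all genes higher and 0.0424% lower. The interaction of the treatments, which asks whether the combination differed from the sum of the single effects on the log2 scale, called 0 members and 0% of all genes, with 904 genes at an unadjusted p below 0.05. The median log2 fold change of the 6 members was 0.88 under palbociclib and 0.96 under the combination, beside -0.16 and -0.22 for all genes tested. Under TCP it was 0.08, beside -0.04. A permutation test of 2 libraries against 2 cannot give an exact two-sided p below 0.333, so each adjusted p depends on the spread estimated across genes by limma.

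**Figure D1:**
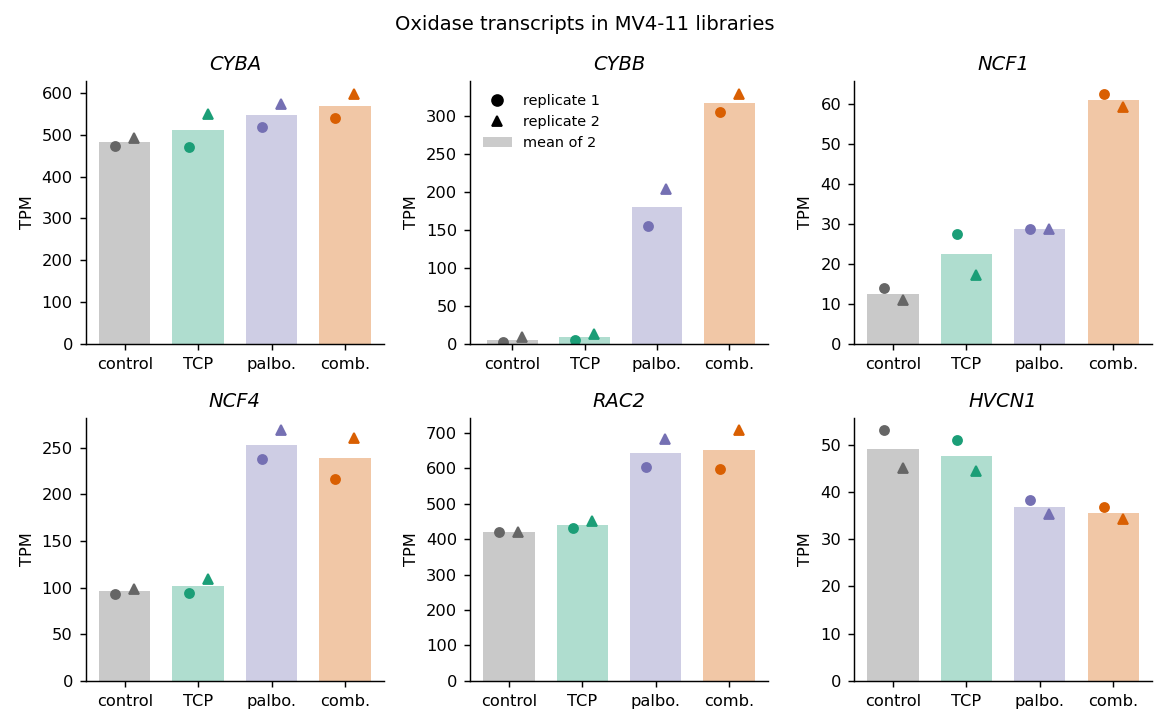
TPM of the 6 members in each library, 1 panel per gene with its own vertical axis from 0. Circles are replicate 1, triangles replicate 2 and bars the mean of 2. CYBB lies at 13.1 TPM or below in control and TCP libraries and at 156 TPM or above in the others, and CYBA stays between 471 and 598 TPM throughout.

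CYBB, the catalytic subunit, is on the X chromosome of GRCh37 from 37639271 to 37672714, plus strand. Control libraries held 3.18 and 9.02 TPM, and TCP libraries 5.27 and 13.1 TPM. Palbociclib libraries held 156 and 204 TPM, and combination libraries 305 and 330 TPM. Control and TCP libraries overlapped, both palbociclib libraries were far above them, and both combination libraries were above both palbociclib libraries. Its level moved from the 24.6th percentile of the genes tested in control cells to the 94.1st under palbociclib and the 97.3rd under the combination.

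CYBB rose under palbociclib by 4.79 on the log2 scale (standard error 0.48, 95% interval 3.66 to 5.92, adjusted p = 0.000465 in limma). Under the combination it was 5.62 (95% interval 4.49 to 6.75, adjusted p = 0.00015), and under TCP it was 0.54 (95% interval -0.59 to 1.67, adjusted p = 0.81). The combination was 0.83 above palbociclib alone on the log2 scale (95% interval -0.31 to 1.96, adjusted p = 0.433), a difference that did not pass the test although the libraries did not overlap. The interval rests on a spread shared by all 4 groups. Replicates of CYBB differed on this scale by 1.26 in control and 1.17 in TCP. They differed by 0.38 in palbociclib and 0.11 in the combination, the groups compared. CYBB was the member with the widest spread, and replicate 2 was above replicate 1 in all 4 groups. Without palbociclib replicate 2, the library with the most stromal transcript, the increase under palbociclib was 4.60. This does not test the part of stromal RNA, because the other libraries held stromal transcript too. CYBB was among the transcripts the study followed by qPCR after choosing them in these libraries, so its direction here is not separate evidence. An unnamed protein-coding readthrough gene overlaps CYBB on the same strand in GENCODE and is not a row of the table.

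CYBA, the p22phox partner that stabilizes the catalytic subunit, is on chromosome 16 from 88709683 to 88717491, minus strand. It had 473 and 491 TPM in control, 471 and 550 TPM in TCP, 518 and 573 TPM in palbociclib and 540 and 598 TPM in combination libraries. Both palbociclib and both combination libraries were above both control libraries, and the TCP libraries overlapped all the other groups. On the log2 scale CYBA differed from control by 0.18 with palbociclib (adjusted p = 0.192) and by 0.24 with both molecules (95% interval -0.0013 to 0.476, adjusted p = 0.0857), and neither passed. CYBA was already at the 98.3rd percentile of level in control cells.

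The level of CYBB relative to CYBA therefore moved with CYBB. Since TPM are per length, the levels of the 2 genes can be compared within a library. There were 149 and 54.5 CYBA transcripts for each CYBB transcript in control libraries, and 89.3 and 41.9 with TCP. This ratio was 3.32 and 2.81 under palbociclib and 1.77 and 1.81 under the combination. CYBA remained the more abundant of the pair in every library, and the ratio of every palbociclib library lay between those of the combination and those of the control and TCP libraries.

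**Figure D2:**
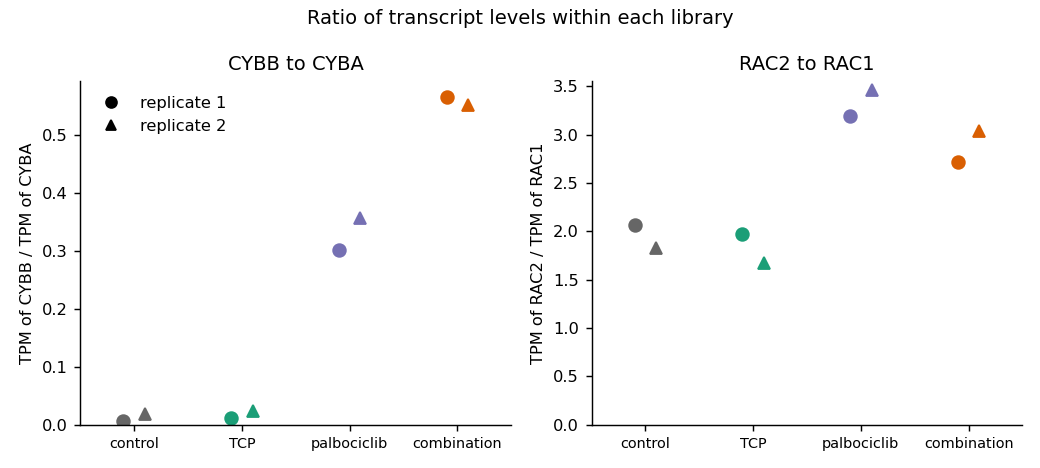
Ratio of TPM within each library, CYBB to CYBA on the left and RAC2 to RAC1 on the right, by group. Circles are replicate 1 and triangles replicate 2. CYBB to CYBA is at 0.0239 or below in control and TCP libraries and reaches 0.564 in a combination library, and RAC2 to RAC1 is at 2.07 or below without palbociclib and at 2.71 or above with it.

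Promoter sequence is shown for CYBB, NCF1 and CYBA because only these had an entry. RefSeq promoters of GRCh38.p14 were matched for 3 of the 6 members, and NCF4, RAC2 and HVCN1 had no entry. NCF4 was a called member, so the windows do not compare all called members with the others. Each line gives the 250 bases before the gene start, read in the direction of the gene, at chrX:37779809-37780058 (plus strand) for CYBB, chr7:74773761-74774010 (plus strand) for NCF1 and chr16:88651054-88651303 (minus strand) for CYBA. Capitals mark the core letters GAGGAA of the PU.1 (ETS family) motif, which read TTCCTC where the motif is on the opposite strand.
CYBB: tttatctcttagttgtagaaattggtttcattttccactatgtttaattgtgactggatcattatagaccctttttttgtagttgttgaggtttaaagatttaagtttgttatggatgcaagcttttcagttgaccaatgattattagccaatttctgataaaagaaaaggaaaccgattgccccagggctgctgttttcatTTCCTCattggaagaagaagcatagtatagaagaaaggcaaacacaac
NCF1: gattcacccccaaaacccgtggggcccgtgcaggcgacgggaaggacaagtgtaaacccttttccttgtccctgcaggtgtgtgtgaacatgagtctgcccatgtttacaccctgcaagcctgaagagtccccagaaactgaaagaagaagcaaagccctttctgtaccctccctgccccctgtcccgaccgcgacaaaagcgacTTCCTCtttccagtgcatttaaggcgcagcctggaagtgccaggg
CYBA: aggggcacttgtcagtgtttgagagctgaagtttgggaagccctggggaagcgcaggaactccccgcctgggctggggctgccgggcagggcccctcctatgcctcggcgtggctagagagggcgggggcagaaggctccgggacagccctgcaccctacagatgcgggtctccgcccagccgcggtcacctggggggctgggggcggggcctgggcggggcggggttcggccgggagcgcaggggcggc

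Searched on both strands, GAGGAA was found once in CYBB, 48 to 43 bases before the start, and once in NCF1, 45 to 40 bases before it. The letters were absent from the CYBA window. Of 35116 promoters of this length, GAGGAA was in 23.6%. The CCAAT box was found 4 times in CYBB, beginning 230, 116, 102 and 42 bases before the start, and not in NCF1 or CYBA, while 32.0% of all promoters held it. The C/EBP letters TTGCNNAA, found in 9.05% of promoters, were in none of the 3 windows. These are matches of letters and not measured binding.

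NCF1, the p47phox organizer that is phosphorylated upon activation, is on chromosome 7 from 74188358 to 74203659, plus strand. It had 14.1 and 11.0 TPM in control, 27.6 and 17.2 TPM in TCP, 28.9 and 28.8 TPM in palbociclib and 62.6 and 59.3 TPM in combination libraries. No 2 groups overlapped, and the combination libraries were the highest. NCF1 rose under palbociclib by 1.15 (adjusted p = 0.00466) and by 2.21 with both molecules (log2 scale, 95% interval 1.71 to 2.70, adjusted p = 0.000234). Under TCP it was 0.77 (95% interval 0.27 to 1.26), which was not called after adjustment (adjusted p = 0.285).

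NCF1 had the largest difference of the members between the combination and palbociclib alone, 1.05 on the log2 scale (95% interval 0.56 to 1.55, adjusted p = 0.0474). This was above the threshold of 0.01 and was called only with a threshold of 0.05. The interaction was 0.29 (adjusted p = 0.983). Of the called members, NCF1 under palbociclib lay closest to the threshold. Without palbociclib replicate 2 its log2 fold change was 1.16 (adjusted p = 0.0297) and the call was lost. It was also lost when any other control, palbociclib or combination library was left out, the adjusted p then lying between 0.0107 and 0.0317.

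NCF1 shares its reads with near-identical copies, NCF1B and NCF1C, on the same chromosome. Over the 11 exons of NCF1, 1349 bases in GRCh37, NCF1B was identical at 99.5% of aligned bases and NCF1C at 99.3%. The start of exon 2 is shown because it is where the copies are known to lack a GT pair. The windows are at chr7:74191603-74191642 (plus strand) for NCF1, chr7:72637903-72637940 (plus strand) for NCF1B and chr7:74584489-74584526 (minus strand) for NCF1C, and capitals mark the GT pairs at the exon start, 2 in NCF1 and 1 in each copy.
NCF1: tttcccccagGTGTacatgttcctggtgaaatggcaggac
NCF1B: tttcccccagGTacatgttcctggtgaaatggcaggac
NCF1C: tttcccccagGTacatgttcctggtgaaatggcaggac

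The values of these 3 genes therefore depend on how reads that match several copies were counted, which is not given in the sources used here. NCF1B had 9.30 and 7.07 TPM in control and 27.8 and 27.8 TPM in combination libraries, a log2 fold change of 1.66 (adjusted p = 0.00165). NCF1C had 11.1 and 7.50 TPM in control and 30.9 and 28.6 TPM in combination libraries, a log2 fold change of 1.60 (adjusted p = 0.000876). The values of both copies were thus called higher under the combination, as was that of NCF1. Whether transcripts of the copies themselves rose cannot be told, since reads of NCF1 may have been counted to them. Under palbociclib both were at 0.92 and were not called (adjusted p = 0.0232 for NCF1B and 0.0113 for NCF1C).

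The 3 genes were also summed, although the sum of values per length can still depend on how reads were divided among genes whose lengths are not given. It was 30.0 ± 6.36 TPM (SD, n = 2) in control, 49.6 ± 16.2 TPM in TCP, 63.4 ± 2.42 TPM in palbociclib and 119 ± 3.99 TPM in combination cells. These means were 1.65, 2.11 and 3.95 times that of control. NCF1 made up 40.8% and 42.9% of the sum in control libraries and 51.6% and 51.2% in combination libraries, and both the sum and this share were highest with both molecules.

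NCF4, the p40phox subunit that binds a phagosomal phosphoinositide, is on chromosome 22 from 37257030 to 37274059, plus strand. It had 92.8 and 99.0 TPM in control, 94.5 and 109 TPM in TCP, 238 and 269 TPM in palbociclib and 217 and 261 TPM in combination libraries. Control and TCP libraries overlapped, palbociclib and combination libraries overlapped, and every library with palbociclib was above every library without it. NCF4 rose by 1.39 on the log2 scale with palbociclib (standard error 0.12, adjusted p = 0.000296) and by 1.30 with the combination (adjusted p = 0.000209). Without palbociclib replicate 2 the increase under palbociclib was 1.30 (adjusted p = 0.00385). The combination differed from palbociclib alone by -0.09 (95% interval -0.37 to 0.20, adjusted p = 0.766). NCF4-AS1 overlaps NCF4 on the opposite strand and is not a row of the table. The libraries were made with a stranded kit, but the strand setting of the counting is not given in the sources used here, so reads of the 2 genes may not have been told apart.

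NCF1 and NCF4 differed in level. NCF4 had 95.9 ± 4.40 TPM (SD, n = 2) in control cells and NCF1 12.5 ± 2.21 TPM. Under the combination these were 239 ± 31.2 and 61.0 ± 2.34 TPM. The ratio of the NCF1 value to that of NCF4 was 0.152 and 0.111 in control and 0.292 and 0.158 in TCP libraries. It was 0.122 and 0.107 in palbociclib and 0.289 and 0.227 in combination libraries. This ratio depends on how reads were divided among NCF1 and its copies. NCF4 was the higher of the pair in every library, and the ratios of the palbociclib libraries overlapped those of control.

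RAC2, the small GTPase of blood cells that activates the oxidase, is on chromosome 22 from 37621310 to 37655634, minus strand. It had 422 and 420.2 TPM in control, 431 and 451 TPM in TCP, 603 and 682 TPM in palbociclib and 597 and 707 TPM in combination libraries. Every library with palbociclib was above every library without it, and the palbociclib and combination libraries overlapped. Against control, RAC2 was higher by 0.61 on the log2 scale with palbociclib (adjusted p = 0.00321) and 0.63 with the combination (adjusted p = 0.00206), and by 0.56 for the combination against TCP (adjusted p = 0.00372). RAC2 passed the adjusted p in these comparisons but not the size of 1, so it was not called. At any size, 9.29%, 10.8% and 10.7% of all genes tested were higher at this adjusted p in the same 3 comparisons. Without palbociclib replicate 2 the difference under palbociclib was 0.52 (adjusted p = 0.0255).

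The other RAC genes did not follow RAC2. RAC1, the widely expressed paralog, had 204 and 229 TPM in control and 220.2 and 233 TPM in combination libraries, a log2 fold change of 0.07 (adjusted p = 0.639). RAC3 had 44.7 and 45.5 TPM in control and 24.0 and 20.3 TPM in combination libraries, a log2 fold change of -0.998 that was just short of the size needed for a call (adjusted p = 0.000246). There were 2.07 and 1.83 RAC2 transcripts for each RAC1 transcript in control, 1.98 and 1.68 in TCP, 3.19 and 3.47 in palbociclib and 2.71 and 3.04 in combination libraries.

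HVCN1, the voltage-gated proton channel, is on chromosome 12 from 111065646 to 111142755, minus strand. It had 53.0 and 44.95 TPM in control, 50.9 and 44.4 TPM in TCP, 38.3 and 35.3 TPM in palbociclib and 36.7 and 34.2 TPM in combination libraries. It was the only member with lower means under palbociclib and the combination than in control, and every library with palbociclib was below every library without it. Its difference from control on the log2 scale was -0.40 with palbociclib (adjusted p = 0.0259) and -0.45 with the combination (adjusted p = 0.0138), and neither was called. Rescaling the libraries by their median ratio, which brings the median gene close to 0, moved these values to -0.24 (adjusted p = 0.105) and -0.23 (adjusted p = 0.111). HVCN1 overlaps TCTN1 on the opposite strand.

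**Figure D3:**
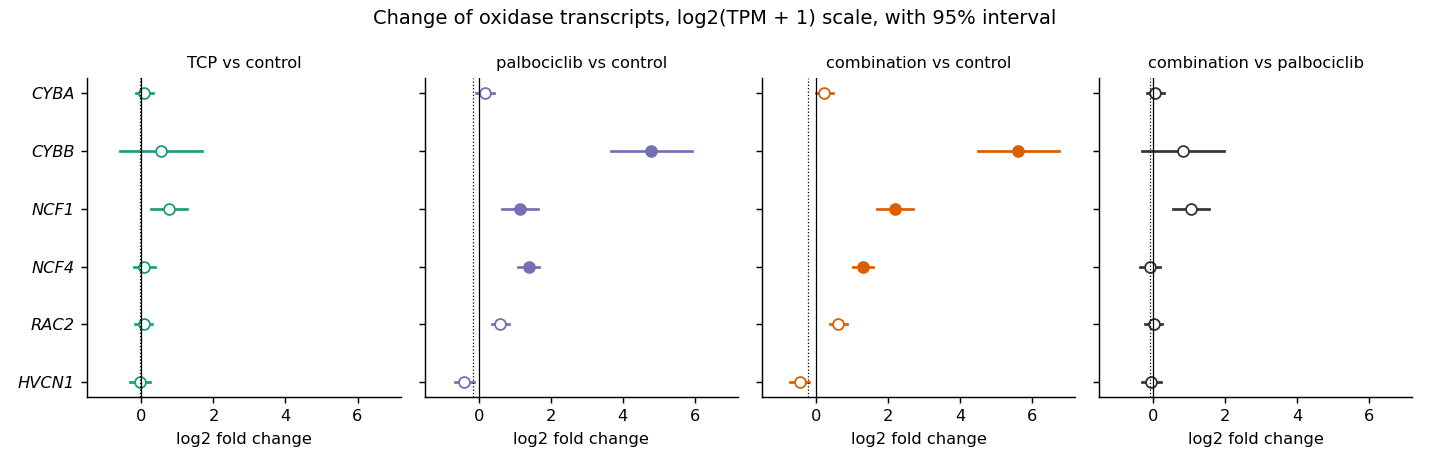
Log2 fold change of each member on the log2(TPM + 1) scale, 1 panel per comparison. Points are estimates from limma, filled where called, lines are 95% intervals, the solid vertical line is 0 and the dotted line the median of all genes. CYBB reaches 4.79 under palbociclib and 5.62 under the combination, and for the combination against palbociclib every point is open.

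The order of the members by mean TPM changed with palbociclib. In control and TCP cells it was CYBA, RAC2, NCF4, HVCN1, NCF1 and CYBB from the highest to the lowest. Under palbociclib it was RAC2, CYBA, NCF4, CYBB, HVCN1 and NCF1, and under the combination RAC2, CYBA, CYBB, NCF4, NCF1 and HVCN1. Neighbours in these orders did not overlap between their 2 libraries, with the exception of RAC2 and CYBA under the combination. CYBB moved from the last place to the third, and HVCN1 from the fourth to the last. The places of NCF1 and HVCN1 depend on how reads were divided among the copies of NCF1. The sum of NCF1 and its copies was 30.0 TPM in control, 49.6 TPM in TCP, 63.4 TPM in palbociclib and 119 TPM in combination cells. HVCN1 had means of 49.0, 47.6, 36.8 and 35.4 TPM in these groups.

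Replicates of a group differed in a way that depended on the gene. CYBA, CYBB and NCF4 were higher in replicate 2 than in replicate 1 in 4 of 4 groups and RAC2 in 3, while NCF1 and HVCN1 were so in 0. For CYBB the difference of log2(TPM + 1) was 1.26 in control, 1.17 in TCP, 0.38 in palbociclib and 0.11 in the combination, so its replicates were closest where its level was highest.

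Apart from the copies of NCF1, no other gene of the oxidase family was called in these comparisons. Of 16 partners and relatives listed, 9 were tested. The counts of this list and of those below stand beside the shares of all genes tested. Under palbociclib 4.54% rose and 4.56% fell, and under the combination 5.87% and 7.82%. Between the combination and palbociclib alone 0.459% were higher. Limma called 0 of these 9 under palbociclib, with 5 of 9 at an unadjusted p below 0.05. Under the combination, 2 were called higher and 0 lower. The 2 were NCF1B and NCF1C, whose values depend on how shared reads were counted. The count under the combination lay between 1 and 3 over the alternatives: NCF1B lost its call without control replicate 2 or either combination replicate, RAC3 gained one with a pseudocount of 0.1 or without control replicate 1 or combination replicate 1, and NOXA1 gained one with either rescaling of the libraries. The median log2 fold change of the 9 was 0.18 and 0.20. NOX3 and DUOXA2 were listed at 0 in every library, and NOX4, NOX5, DUOX1, DUOX2 and DUOXA1 were too low to be tested, and CYBB had the highest level of the catalytic subunits in every library. NOX1, the colonic homolog, had 0.559 to 1.10 TPM, and differed from control on the log2 scale by 0.05 with palbociclib and -0.15 with the combination. NOXO1, its organizer, had 0.626 to 2.22 TPM, with values of 0.10 and 0.36. NOXA1, the activator that works with NOX1, had 15.3 and 11.8 TPM in control and 25.9 and 26.0 TPM in combination libraries, a log2 fold change of 0.90 that was not called (adjusted p = 0.00888).

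C17orf62 is the older symbol of CYBC1, the chaperone needed for the cytochrome to mature. It had 143 and 141 TPM in control and 162 and 164 TPM in combination libraries, a log2 fold change of 0.20 (adjusted p = 0.0528). RAP1A, a small GTPase found with the cytochrome, had 38.6 and 34.5 TPM in control and 34.1 and 33.5 TPM in combination libraries, a log2 fold change of -0.11 (adjusted p = 0.499). Neither was called, and the sign for RAP1A turned with quantile normalization (0.10) and median-ratio scaling (0.12).

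Of 13 receptors that trigger the oxidase, 8 rose under palbociclib (median log2 fold change 1.85) and 12 under the combination (median 2.29), and 0 fell in either. FPR1, the receptor for bacterial formyl peptides, had 0.355 and 0.628 TPM in control, 21.2 and 18.6 TPM in palbociclib and 74.2 and 54.7 TPM in combination libraries. It rose by 3.81 and 5.44 on the log2 scale (adjusted p = 4.42e-05 and 8.46e-06). FPR2, a related receptor, rose by 3.91 and 4.09 on the log2 scale. FCER1G, the signalling chain of Fc receptors, had 43.6 and 28.0 TPM in control and 669 and 772 TPM in combination libraries, an increase of 4.32 on the log2 scale. Under TCP alone limma called 0 of these receptors, with 6 of 13 at an unadjusted p below 0.05. FCGR1A, the high-affinity IgG receptor, was the member of the list not called under the combination, at 0.41 (adjusted p = 0.0513).

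Between the combination and palbociclib alone, 3 receptors were also called, a count that was 0 with a pseudocount of 0.1 or with only the groups compared, 5 at an adjusted p below 0.05, 1 without either control library and 0 without any 1 of the palbociclib or combination libraries. FPR1 was higher by 1.63 on the log2 scale (adjusted p = 0.0076), CLEC7A, the beta-glucan receptor, by 2.09 (adjusted p = 0.00313) and C5AR1, the receptor for complement C5a, by 2.02 (adjusted p = 0.00813). C5AR1 was named after its values were seen. It had 0.623 and 0.286 TPM in control, 0.571 and 0.392 TPM in palbociclib and 5.39 and 4.60 TPM in combination libraries, so it was at the control level with palbociclib alone.

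Of 27 kinases, lipases, exchange factors and regulators of assembly, 5 rose under palbociclib (median log2 fold change 0.10), and 6 rose and 2 fell under the combination (median 0.12). S100A8 and S100A9, calcium-binding proteins that carry arachidonic acid to the oxidase, rose most. S100A9 had 13.7 and 18.2 TPM in control, 1820 and 1578 TPM in palbociclib and 7343 and 5756 TPM in combination libraries, and was also called between the last pair of groups, at 1.94 (adjusted p = 0.00649), a call that was lost without any 1 of the libraries of those groups or of control. PRKCA, a protein kinase C, had 11.3 and 12.98 TPM in control and 57.2 and 62.8 TPM in combination libraries, an increase of 2.21 on the log2 scale. ARHGDIB, a GDP dissociation inhibitor for small GTPases in blood cells, rose by 1.61 under palbociclib and 1.43 under the combination. The 2 that fell under the combination were VAV3, an exchange factor, at -1.01, and the phospholipase PLA2G4A, at -1.13. Both were named after their values were seen, and both fell short of the size of 1 with quantile normalization (-0.86 and -0.94) or median-ratio scaling (-0.80 and -0.92). The call of each was also lost without combination replicate 2, that of VAV3 without control replicate 2 and that of PLA2G4A without control replicate 1. The abundant ARHGDIA (-0.32), PAK2 (-0.15) and AKT1 (-0.11) were not called under the combination, and the last 2 changed sign with median-ratio scaling.

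NADPH, the electron donor of the oxidase, is regenerated mainly by the pentose phosphate pathway. Of 10 genes of NADPH supply, 2 rose and 1 fell under palbociclib (median log2 fold change 0.01), and 2 rose and 2 fell under the combination (median 0.10). PGD, a dehydrogenase of that pathway, had 347 and 348 TPM in control, 1075 and 1172 TPM in palbociclib and 1048 and 1147 TPM in combination libraries. It rose by 1.69 and 1.65 on the log2 scale, and NADK, which makes NADP from NAD, rose by 1.12 and 1.09. MTHFD1, an enzyme of folate metabolism, fell in both comparisons (-1.01 and -1.14), and mitochondrial IDH2 fell under the combination (-1.06). All 3 of these calls were lost with either rescaling of the libraries, and that of MTHFD1 under palbociclib also without control replicate 2 or palbociclib replicate 2. TKT (0.43), TALDO1 (0.29) and PGLS (-0.03), further enzymes of the pathway, were not called under the combination. Without palbociclib replicate 2, 2 genes of this list were called under palbociclib.

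On the list of superoxide and peroxide enzymes, which also holds the antioxidant genes HMOX1 and NQO1, 15 genes were tested. SOD2 and HMOX1 rose under palbociclib and under the combination, and 0 fell (median log2 fold change -0.03 and 0.11). SOD2, the mitochondrial superoxide dismutase, had 117 and 132 TPM in control, 420 and 499 TPM in palbociclib and 701 and 685 TPM in combination libraries, and rose by 1.87 and 2.47 on the log2 scale. HMOX1, the inducible heme oxygenase, which acts on heme and not on superoxide or peroxide, rose by 2.09 and 2.99. MPO, which turns hydrogen peroxide into hypochlorous acid, stood 0.85 above control on the log2 scale with palbociclib and 0.65 with the combination, neither called, and was called for the combination against TCP (1.38, adjusted p = 0.000177). GPX1 (0.84) and CAT (-0.12) were not called under the combination, although GPX1 reached 1.07 and was called in 1 alternative. CAT had 414 and 498 TPM in control, 743 and 791 TPM in palbociclib and 395 and 444 TPM in combination libraries. Under palbociclib alone CAT differed from control by 0.75 on the log2 scale, which was not called. PRDX1, a peroxiredoxin, had 499.7 and 554 TPM in control, 993 and 1085 TPM in TCP, 368 and 345 TPM in palbociclib and 620.2 and 584 TPM in combination libraries. Its difference under TCP was 0.98, just short of the size needed for a call (adjusted p = 0.00956), while under palbociclib both libraries were below control.

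Of 8 genes of phagosome pH and charge, 1 rose under palbociclib and 3 under the combination (median log2 fold change 0.53 and 0.62). These 3 were SLC11A1, a phagosomal metal transporter (2.07), and the proton pump subunits ATP6V0D1 (1.02) and ATP6V1A (1.01). Without control replicate 1 both pump subunits fell short of a size of 1 and only 1 gene was called, and ATP6V0D1 also fell short without combination replicate 2. The count under palbociclib, which is SLC11A1, was 0 without control replicate 2 or either palbociclib replicate and with a mean of 5 TPM or more, and 2 with median-ratio scaling. TCIRG1, a further pump subunit, had 0.68, CLCN7, a lysosomal chloride transporter, 0.50, and CLIC1 -0.21, and none of them was called. HVCN1 and the called pump genes therefore had opposite signs, and HVCN1 itself did not pass.

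Of 18 transcription regulators linked to oxidase genes, 0 rose and 1 fell under palbociclib (median log2 fold change 0.02), beside 4.54% and 4.56% of all genes. Under the combination, 2 rose and 2 fell (median 0.01), beside 5.87% and 7.82% of all genes. SPI1, which encodes the PU.1 factor, had 214 and 250.1 TPM in control, 208 and 264 TPM in TCP, 410 and 464 TPM in palbociclib and 437 and 497 TPM in combination libraries. It was above control by 0.91 on the log2 scale with palbociclib (adjusted p = 0.0025) and 1.01 with the combination (adjusted p = 0.0012), so it lay on either side of the size of 1. SPI1 was called under palbociclib with median-ratio scaling (1.08) or without control replicate 2 or palbociclib replicate 1, and lost its call under the combination without control replicate 1 or combination replicate 2. CEBPB rose by 1.07 under the combination. SATB1 (-1.23) and IRF1 (-1.002) fell under the combination, and IRF1 also under palbociclib (-1.003). IRF1 fell short of the size of 1 in both comparisons with quantile normalization (-0.80 and -0.86) or median-ratio scaling (-0.78 and -0.84), without control replicate 1, and without replicate 2 of the treated group. The count of regulators under palbociclib was 0 to 3 over the alternatives. ELF1 (-0.55), CEBPA (-0.04) and IRF8 (0.29) were not called under the combination.

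**Figure D4:**
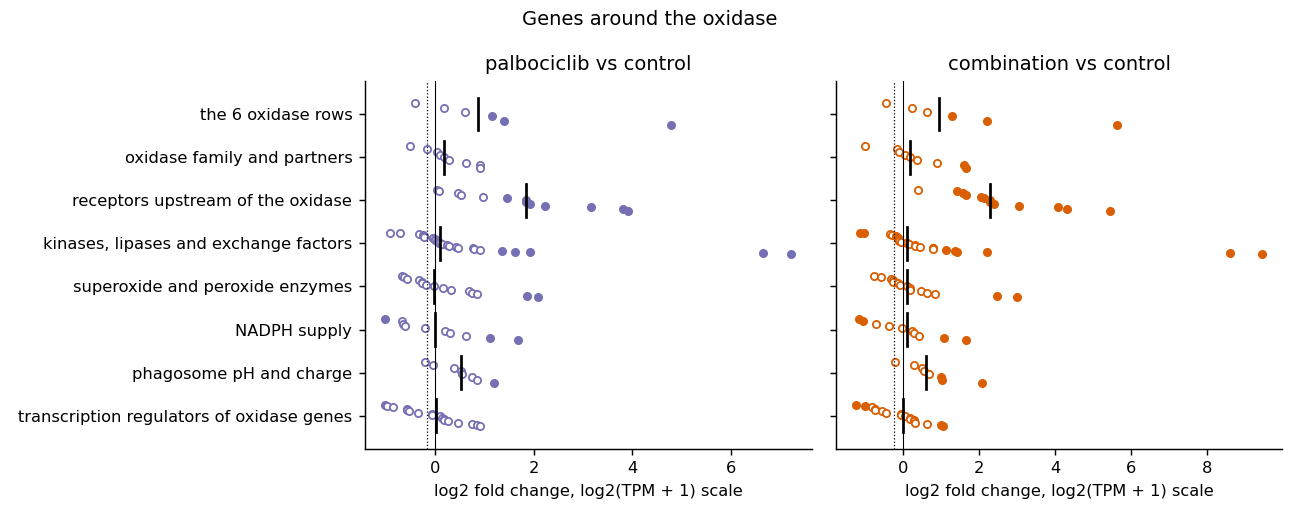
Log2 fold change of every tested gene of the members and of 7 related lists, palbociclib against control on the left and the combination against control on the right. Filled points were called, open points were not, and the vertical bar is the median of the list. The receptors have the highest median in both panels (1.85 and 2.29). The medians of the kinases, peroxide enzymes, NADPH supply and regulators lie between -0.03 and 0.12, although each of these lists holds called genes.

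The genes with the most like pattern to each member were found among the 14150 other genes tested, by the root mean square difference of centred log2(TPM + 1) over the 8 libraries. For CYBB they were LYZ (0.269), FCAR (0.401) and THBS1 (0.439), which encode lysozyme, an IgA receptor and thrombospondin. For NCF4 they were ARSA (0.0336), TMEM138 (0.0573) and ST3GAL2 (0.0634), and for RAC2 TPCN2 (0.0464), STXBP2 (0.0465) and LIMK1 (0.0536). For NCF1 they were the microRNA hairpin entry MIR124-1 (0.114), PPM1M (0.120) and MS4A14 (0.145). For CYBA, NUDT22 (0.0369), MAP3K11 (0.0384) and KCTD10 (0.0387) were closest, and for HVCN1 RPL4 (0.0329), LRRFIP2 (0.0349) and SRPRB (0.0351).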

How the data were processed

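RNA-seq of 8 MV4-11 libraries was analysed, 2 in each of 4 groups. Per the labels and methods, the authors aligned reads from a stranded mRNA kit with subread-align (hg19), ran featureCounts 1.6.4 and deposited TPM, the unit used here. The annotation, gene lengths and strand setting are not given in the sources used here, and depth is unknown. From the deposited TPM, log2(TPM + 1) was fitted with limma 3.58.1 in R 4.3.3, 1 coefficient per group over all libraries, with a mean-variance trend and 4 residual degrees of freedom. The 14151 genes that reached 1 TPM in 2 or more libraries were tested, with Benjamini-Hochberg adjustment over all of them. Fold changes on this scale understate the change of low genes. The procedure was tested on simulated data.

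The members and the 10 gene lists were chosen with earlier results of these data known, and some genes of the lists are not reported here and are not in the list counts. Named were the members, every gene of the family list, and from each other list up to 4 called genes with the largest change under the combination and up to 3 abundant genes called in no comparison. Gene positions and exon identity are from GENCODE on GRCh37, which may not be the annotation the authors counted on. Alternatives were a pseudocount of 0.1, no filter, a mean of 5 TPM or more, quantile normalization, median-ratio scaling, the replicate block, only the groups compared, no trend, an adjusted p below 0.05 and each library left out. After each group's mean was subtracted, libraries with the same number correlated across genes at 0.169 to 0.491 in the 6 pairs of groups. On that ground alone they were taken as pairs in the replicate block, which is an alternative. The main fit had no term for the replicate number, so its p-values ignore such a pairing. What a number stands for is not stated in the labels.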

Additional observations from a re-analysis of the deposited data

How the results depend on the processing

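Of 606 recomputed fold changes of the members, 562 kept their direction and call, 10 lost the call, 1 gained it and 33 changed sign. All 33 were in fold changes that were not called. The 10 lost calls were all of NCF1, 7 for palbociclib against control and 3 for the combination against TCP. Besides the libraries left out, the first was lost with no filter (adjusted p = 0.0126) and the second with only the groups compared (adjusted p = 0.0107). The gained call was NCF1 at an adjusted p below 0.05, which made 1 member called between the combination and palbociclib. The replicate block changed no member's call, leaving 3, 3, 3, 0, 0 and 0 members called. It also called NCF1B for the combination against TCP (adjusted p = 0.00519). Over all genes, the 8 calls under TCP became 3 with quantile normalization or median-ratio scaling, 20 with the block, 0 with only the groups compared, 36 at an adjusted p below 0.05 and 0 to 1 with any 1 library left out. The 71 calls between the combination and palbociclib became 42 with a pseudocount of 0.1, 38 with no filter, 114 with the block, 10 with only the groups compared, 183 at an adjusted p below 0.05 and 1 to 52 with any 1 library left out. The 1288 calls under palbociclib were 787 without palbociclib replicate 2. List counts under palbociclib also moved: the family count of 0 became 2 with quantile normalization and 1 with median-ratio scaling, the regulator count of 1 ranged from 0 to 3, and the phagosome count of 1 from 0 to 2. Under the combination the family count of 2 ranged from 1 to 3, the regulator count of 4 from 2 to 4 and the phagosome count of 3 from 1 to 3. Either scaling there called 2 genes of NADPH supply instead of 4.

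None of the sign changes below was in a called value, and their cause was not tested. Quantile normalization turned the sign for HVCN1 (0.0079) in TCP against control, for NOX1 (-0.0078) in palbociclib against control, for RAP1A (0.10), AKT1 (0.029), PGLS (0.11) and CEBPA (0.0603) in the combination against control, for RAC2 (-0.0068) and HVCN1 (0.011) in the combination against palbociclib, and for HVCN1 (0.0036) in the interaction. Median-ratio scaling turned the sign for HVCN1 (0.0066) in TCP against control, for RAP1A (0.12), PAK2 (0.079), AKT1 (0.12), CAT (0.11), PGLS (0.20), CEBPA (0.19) and CLIC1 (0.022) in the combination against control, for HVCN1 (0.013) in the combination against palbociclib, and for CYBA (0.0032) and HVCN1 (0.0067) in the interaction. With 1 library left out, the range spanned 0 in TCP against control for CYBB (-0.0897 to 1.17), HVCN1 (-0.15 to 0.079), CYBA (-0.034 to 0.19) and NCF4 (-0.021 to 0.19). The range spanned 0 in palbociclib against control for NOX1 (-0.0044 to 0.19), AKT1 (-0.0601 to 0.079) and NOXO1 (-0.035 to 0.24). The range spanned 0 in the combination against control for RAC1 (-0.017 to 0.15), CAT (-0.25 to 0.016), CEBPA (-0.10 to 0.029) and PGLS (-0.11 to 0.0403). The range spanned 0 in the combination against palbociclib for CYBA (-0.013 to 0.13), RAC2 (-0.10 to 0.14), HVCN1 (-0.11 to 0.0068) and NCF4 (-0.22 to 0.045). The range spanned 0 in the interaction for CYBA (-0.13 to 0.094), CYBB (-0.35 to 0.92), HVCN1 (-0.13 to 0.10), NCF1 (-0.039 to 0.61) and RAC2 (-0.17 to 0.074).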
